A study of Mus musculus with 81 samples.

Results

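The endogenous T-cell repertoire of day 7 blood was compared between mice given the low dose of antigen-presenting red blood cells and control mice. The comparison used 5 libraries of low-dose mice (mRBC-OVA-4-1BBL-IL-12, labelled 2.5e8) and 4 of control mice (mRBC-CTRL, mice 2 to 5), all drawn on day 7, out of 81 libraries in the series. Within each library the members were the in-frame TCRβ rearrangements whose CDR3 was not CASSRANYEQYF, the receptor of the transferred OT-1 cells. Between 1604 and 2748 such rearrangements were counted in each low-dose library and between 3473 and 7761 in each control library, and the 9 libraries together held 29629 different ones.

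A T cell builds the β chain of its receptor by joining a V, a D and a J segment, with bases trimmed and added at random at the joints. The joint encodes the CDR3, the loop that contacts the peptide held by an MHC molecule, and all daughters of a T cell inherit the same rearrangement. A rearrangement counted many times therefore marks an expanded clone. Richness is the number of different rearrangements in a sample of fixed size, and clonality is 1 minus the normalized Shannon entropy, which is 0 when every rearrangement is equally frequent and nears 1 when a single clone takes over.

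All mice were female Pep Boy animals (B6.SJL-Ptprc<a> Pepc<b>/BoyJ), C57BL/6 congenics that carry the CD45.1 allele, and all bore subcutaneous tumors of EG7.OVA, an ovalbumin-expressing derivative of the EL4 lymphoma. All also received 1e6 naive OT-1 cells, whose transgenic receptor sees the ovalbumin peptide SIINFEKL on H-2Kb. The low-dose group was given 2.5e8 mouse red blood cells carrying H-2Kb with SIINFEKL, 4-1BBL and IL-12 on their surface, and the control group was given 1e9 mouse red blood cells without these molecules, both intravenously on days 0 and 3. The groups therefore differ in the number of red blood cells as well as in what these carried, and these cannot be told apart. A full-dose group, used only where named, bore the same tumors and received the same OT-1 cells. It was given 1e9 of the antigen-presenting red blood cells on the same days. Each group held 5 mice, and the day 7 blood of control mouse 1 was not analysed here. The labels give a mouse number and an animal code for each library and name no batch of DNA extraction or sequencing.

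The libraries were shallow. The deposited counts summed to 3818 to 7446 templates in the low-dose libraries and 7634 to 15883 in the control libraries, of which 2483 to 4900 and 5002 to 10699 were endogenous and in frame. Template counts of endogenous rearrangements thus did not overlap between the groups, at a mean of 3364 ± 961 (SD, n = 5) against 6953 ± 2550 (n = 4), and this difference had p = 0.00794 in a 2-sided exact permutation test over all 126 splits of the mice. That is the smallest p these group sizes allow, and its adjusted value over the 8 day 7 comparisons was 0.0212. Leaving out control mouse 4, the deepest library, moved the difference (low dose minus control) from -3589 to -2341 templates (exact permutation p = 0.0357). DNA came from 50 to 60 µL of blood, and the DNA put into each assay is not given in the sources used here, so fewer T cells in the blood and less DNA assayed cannot be told apart. Richness and clonality were accordingly computed for 2483 templates per library, the size of the smallest.

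The labels were checked against what libraries of a mouse should share. Each of the 9 day 7 libraries shared more endogenous rearrangements with the tumor of its own mouse (44 to 138) than with any of the 40 treatment-experiment libraries of other mice (12 to 52 at most). With day 0 blood the overlap was smaller, at 7 to 42 rearrangements, and in low-dose mouse 4 and control mice 3, 4 and 5 some library of another mouse shared more. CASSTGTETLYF, the receptor of the EL4 lineage itself, was found as 1 template in low-dose mouse 3 and was at 0 in the other 8 libraries, so lymphoma DNA was at or near 0 in this blood. In the tumors it held 9.16% to 67.1% of the in-frame templates other than OT-1 in the low-dose mice and 56.3% to 83.8% in control mice 2 to 5. Tumor shares and ranks below therefore leave out this CDR3 as well as OT-1, and values with the lymphoma kept are given where named. Since the lymphoma held more of the control tumors, tumor shares are given without a test between the groups. Rearrangements within 2 bases of the OT-1 sequence, which sequencing errors of OT-1 could produce, had 0 templates under another CDR3 in all 9 libraries.

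The clones on which the comparison turned are shown first, in the reading direction of the β chain. Lower case gives the end of the V segment, and capitals give the CDR3 from its conserved cysteine codon to the end of the 87-base read. The codon of the last CDR3 residue lies beyond the read. Clones are named by their CDR3 or by their V and J segments. OT-1 is shown as the reference, followed by the 3 clones that outranked it, the largest clones of the other low-dose mice and the largest clone of any control mouse.
OT-1: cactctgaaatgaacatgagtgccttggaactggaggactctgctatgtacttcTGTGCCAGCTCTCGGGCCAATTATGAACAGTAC
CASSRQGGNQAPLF (low-dose mouse 4, above OT-1): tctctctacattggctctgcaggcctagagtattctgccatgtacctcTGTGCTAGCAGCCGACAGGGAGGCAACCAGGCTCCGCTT
TCRBV19-01/TCRBJ02-07 clone (low-dose mouse 2, above OT-1): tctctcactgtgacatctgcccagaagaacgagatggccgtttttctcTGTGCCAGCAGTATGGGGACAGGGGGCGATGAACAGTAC
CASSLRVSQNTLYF (low-dose mouse 2, above OT-1): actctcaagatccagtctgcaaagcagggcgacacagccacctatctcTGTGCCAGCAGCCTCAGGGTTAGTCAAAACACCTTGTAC
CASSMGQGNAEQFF (low-dose mouse 1): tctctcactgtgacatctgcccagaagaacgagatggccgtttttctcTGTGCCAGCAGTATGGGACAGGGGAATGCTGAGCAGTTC
TCRBV29-01/TCRBJ01-03 clone (low-dose mouse 3): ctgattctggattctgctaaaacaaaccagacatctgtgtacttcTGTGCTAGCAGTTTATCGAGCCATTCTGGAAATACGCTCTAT
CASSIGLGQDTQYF (low-dose mouse 5): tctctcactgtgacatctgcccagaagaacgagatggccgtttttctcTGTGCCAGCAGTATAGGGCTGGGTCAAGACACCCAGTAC
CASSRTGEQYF (control mouse 5): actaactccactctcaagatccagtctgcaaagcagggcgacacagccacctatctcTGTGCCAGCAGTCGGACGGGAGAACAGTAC
The TCRBV19-01/TCRBJ02-07 clone, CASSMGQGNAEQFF and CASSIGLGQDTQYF carry the same lower-case stretch because all use TCRBV19-01, while the other endogenous clones shown use TCRBV17-01, TCRBV14-01 and TCRBV29-01.

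Endogenous CDR3s outranked OT-1 in 2 of the 5 low-dose mice and in none of the 4 control mice. OT-1 made up 3.12% and 3.42% of in-frame templates in these low-dose mice, numbers 2 and 4. These were the lowest shares of their group, which ran to 7.70%, and lay inside the control range of 2.17% to 7.58%. In mouse 4, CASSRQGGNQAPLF (TCRBV17-01 with TCRBJ01-05) counted 271 templates against 104 of OT-1. Its main rearrangement made up 9.05% of endogenous templates (95% Wilson interval 8.07 to 10.1), the largest share of any endogenous clone in the 9 libraries. In the day 0 blood of the same mouse it had 0 of 2683 endogenous templates, which puts the day 7 share at least 80.9-fold above the floor of 3 templates. It was also the largest clone in that mouse's tumor, with 755 templates against 586 of OT-1. It made up 29.2% of the tumor templates other than OT-1 and lymphoma, and 26.5% with the lymphoma kept.

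Mouse 2 held a pair of such clones. The CDR3 of the TCRBV19-01/TCRBJ02-07 clone counted 338 templates and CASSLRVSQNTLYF (TCRBV14-01 with TCRBJ02-04) counted 220, against 158 of OT-1. The main rearrangement of the former made up 6.86% of endogenous templates (6.18 to 7.60). It already had 22 of 18519 endogenous templates in day 0 blood, more than any other named clone, and its share was 57.7-fold higher on day 7. It made up 36.3% of the tumor templates that were neither OT-1 nor lymphoma (24.6% with the lymphoma kept, whose CDR3 had 4236 templates against 3250), and no other such clone there was larger. OT-1 had 2884 templates in this tumor, fewer than this clone. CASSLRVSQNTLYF made up 4.47% on day 7 (3.93 to 5.08), with 1 template in day 0 blood and 8.66% in the tumor (5.88% with the lymphoma kept), at rank 3 of the clones other than OT-1 and lymphoma. In mouse 1, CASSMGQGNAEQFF (TCRBV19-01 with TCRBJ02-01) stood just below OT-1, with 159 against 162 templates. Its main rearrangement made up 4.31% (3.70 to 5.01), which was 79.9-fold above its day 0 share of 4 in 7417 templates, and it made up 25.4% of the tumor templates without the lymphoma and 16.96% with it.

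The largest clones of mice 3 and 5 were smaller. The TCRBV29-01/TCRBJ01-03 clone made up 3.06% in mouse 3 (2.45 to 3.81), 42.8-fold above its 7 templates of 9788 on day 0. Its tumor share was 16.8% without the lymphoma and 5.53% with it. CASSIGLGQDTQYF (TCRBV19-01 with TCRBJ02-05) made up 0.883% in mouse 5 (0.599 to 1.30) and had 0 of 9821 templates on day 0, which puts the day 7 share at least 28.9-fold above the floor. In that mouse's tumor it was nonetheless the largest clone other than OT-1 and the lymphoma, with 9.90% of the remaining templates (4.53% with the lymphoma kept). Mouse 5 thus stood apart within the low-dose group, with a largest clone inside the control range.

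In the control mice the largest clones made up 0.851% (TCRBV15-01 with TCRBJ02-01, mouse 2), 0.866% (TCRBV04-01 with TCRBJ01-04, mouse 3), 1.37% (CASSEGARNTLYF, mouse 4) and 1.64% (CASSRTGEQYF, mouse 5) of endogenous templates. These were found in the matching tumors as well, with 15.3%, 5.05%, 14.4% and 10.5% of templates when the lymphoma was left out and 3.996%, 2.21%, 3.25% and 1.70% when it was kept. In day 0 blood 1 template of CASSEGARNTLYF was counted and the other 3 were at 0. The largest clone of the low-dose mice averaged 4.83% ± 3.20 (n = 5) against 1.18% ± 0.390 (n = 4), and the groups overlapped (2-sided exact permutation p = 0.0714, adjusted 0.0952). Leaving out each mouse in turn gave differences of 2.59 to 4.64 percentage points, against 3.65 with all mice. The exact permutation p values ran from 0.0286 to 0.125, and 8 of these 9 runs did not pass the test. The exception, at 4.64 points and p = 0.0286 (exact permutation), left out low-dose mouse 5. That was the only low-dose mouse with a largest clone inside the control range. Its removal alone separates the groups, so no conclusion is drawn from that p.

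Beyond the clones described so far, 10 low-dose clones reached 1% of endogenous templates. Mouse 1 had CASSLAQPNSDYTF at 1.23%, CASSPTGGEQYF at 1.15% and a TCRBV31-01/TCRBJ02-02 clone at 1.12%, each between 3.93% and 4.95% of its tumor without the lymphoma (2.62% to 3.30% with it). Mouse 2 had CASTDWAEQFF at 1.82%, a TCRBV17-01/TCRBJ02-07 clone at 1.20% and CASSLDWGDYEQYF at 1.06%. The last made up 8.87% of the tumor without the lymphoma, second among such clones, and 6.02% with it, while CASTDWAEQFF made up 1.46% and 0.992%. Mouse 3 had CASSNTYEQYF at 2.42%, a TCRBV05-01/TCRBJ01-04 clone at 1.37% and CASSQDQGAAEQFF at 1.05%. Mouse 4 had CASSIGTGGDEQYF at 1.33%, which was 14.02% of its tumor without the lymphoma and 12.7% with it. No control clone below the first rank reached 1%. Of the 20 clones named here, 7 were also found as the identical rearrangement in 1 of the 78 libraries of other mice and 13 in none.

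**Figure D1:**
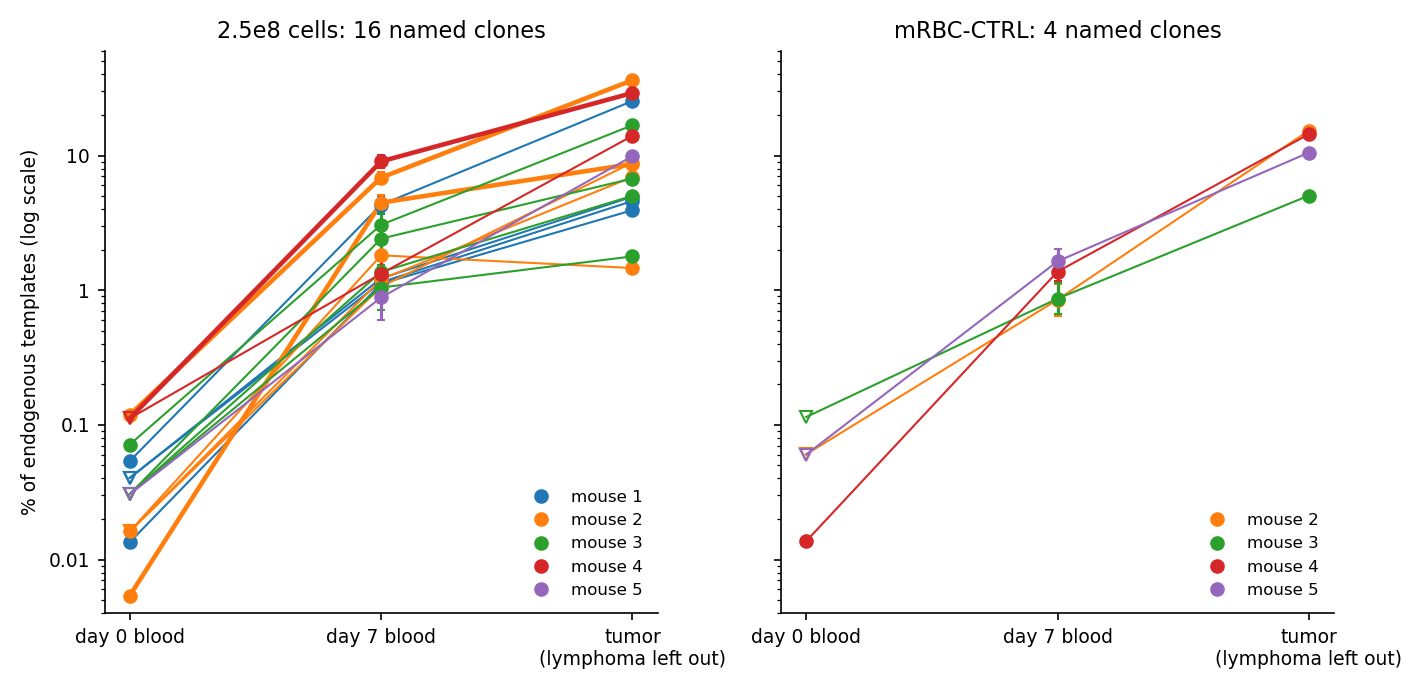
Share of endogenous templates (in percent; tumor shares also leave out the lymphoma CDR3) of each named clone in the day 0 blood, day 7 blood and tumor of its own mouse, on a log axis, with 95% Wilson intervals at day 7 for counting error. Open triangles mark 0 templates and are drawn at the floor of 3 templates, and thick lines mark the 3 clones that outranked OT-1, at 9.05%, 6.86% and 4.47% of endogenous templates on day 7.

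Considered together, the expanded clones took more of the low-dose repertoire. The 10 largest endogenous clones made up 10.4%, 16.9%, 11.2%, 14.5% and 5.23% of endogenous templates in low-dose mice 1 to 5 and 2.98%, 3.54%, 2.87% and 5.18% in control mice 2 to 5. The groups did not overlap, although low-dose mouse 5 and control mouse 5 lay next to each other. The means were 11.7% ± 4.44 and 3.64% ± 1.07 (2-sided exact permutation p = 0.0159, adjusted 0.0254). Without any one control mouse the difference was 7.75 to 8.52 percentage points, with an exact permutation p of 0.0536. Clones of at least 0.5% numbered 5, 5, 7, 7 and 5 in the low-dose mice and 1, 1, 1 and 4 in the control mice. The means of 5.8 ± 1.10 and 1.75 ± 1.5 had an exact permutation p of 0.00794 (adjusted 0.0212), and without rearrangements of a single template the difference of 4.5 clones had p = 0.0556 in the same exact permutation test. At 0.5%, the smallest low-dose library needs 13 templates for a clone to be counted, so this threshold rests on few molecules.

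**Figure D2:**
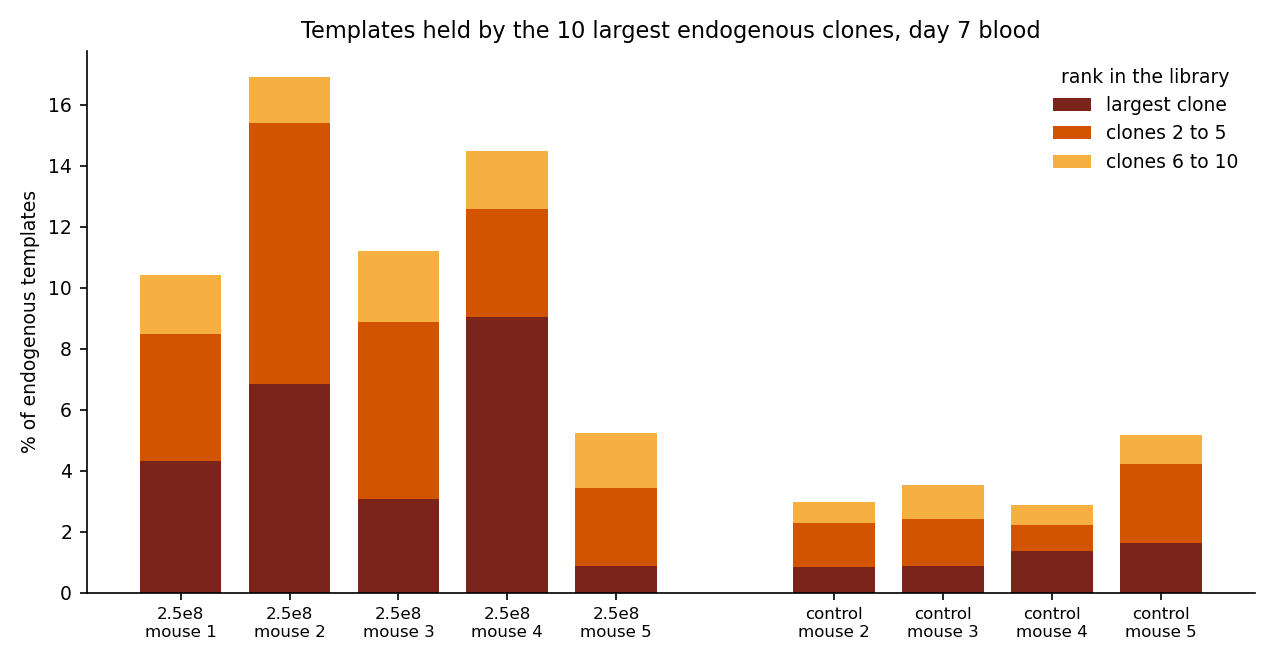
Share of endogenous templates held by the largest clone, by ranks 2 to 5 and by ranks 6 to 10 in each of the 9 day 7 libraries, as stacked bars from 0 in percent. The stacks of low-dose mice 1 to 4 reach 10.4% to 16.9%, and those of low-dose mouse 5 and the control mice reach 2.87% to 5.23%.

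Endogenous clonality at 2483 templates was 0.0444, 0.0788, 0.0480, 0.0722 and 0.0209 in low-dose mice 1 to 5 and 0.0109, 0.0119, 0.00918 and 0.0183 in control mice 2 to 5. All low-dose values lay above all control values, by the narrowest margin between the 2 mice numbered 5. The mean was 4.21-fold higher with the low dose, at 0.0529 ± 0.0233 against 0.0126 ± 0.00397 (2-sided exact permutation p = 0.0159, adjusted 0.0254). Leaving out any one control mouse left differences of 0.0392 to 0.0422 with an exact permutation p of 0.0536, and leaving out any one low-dose mouse left differences of 0.0338 to 0.0483 with an exact permutation p of 0.0286. Without the 10 largest clones of each library the difference was 0.00742 instead of 0.0403 (exact permutation p = 0.00794). Clones removed for their size weigh most in clonality, so a drop was built in and does not measure their part. The value without them was computed at the smaller depth of the smallest library after their removal.

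Richness differed in the opposite direction. Among 2483 templates, 1710, 1686, 1604, 1488 and 1682 different rearrangements were expected in the low-dose libraries and 2101, 2116, 2257 and 2029 in the control libraries. The groups were far apart, at 1634 ± 91.2 (n = 5) and 2126 ± 95.3 (n = 4), a difference of -492 rearrangements (2-sided exact permutation p = 0.00794, adjusted 0.0212). Without the 10 largest clones of each library the difference was -335 rearrangements with the same p. Library size, described below, was not taken out of this value, and the cause of the difference was not tested. This value was computed at the smaller depth of the smallest library after that removal, so its size is not directly comparable with -492.

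Library size moved with richness even at equal depth. In the day 0 libraries of the 9 mice, richness at 2483 templates went from 1862 in the library of 2621 templates to 2369 in that of 18519. When the line of richness on log2 templates of the day 0 libraries was taken out, the day 7 difference was -310 rearrangements (exact permutation p = 0.00794) and that of clonality was 0.0375 (p = 0.0159). The pair closest in size was low-dose mouse 2, with 4900 endogenous templates and a richness of 1686, and control mouse 5, with 5002 and 2029.

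The same mice did not differ detectably before the first dose. Day 0 blood was drawn within minutes of the OT-1 transfer. OT-1 then made up 17.0% to 28.3% of in-frame templates in the low-dose mice and 18.9% to 28.8% in all 5 control mice. On day 0 clonality was 0.00476 ± 0.00257 in the low-dose mice and 0.00682 ± 0.00223 in the control mice, and richness was 2231 ± 158 and 2099 ± 163. The 6 day 0 comparisons had exact permutation p values of 0.143 to 0.937 (adjusted 0.343 to 0.937). These tests of 5 against 4 mice leave room for a difference, since endogenous templates on day 0 ranged from 2683 to 18519 and from 2621 to 7304.

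Within mice, richness was lower on day 7 than on day 0 in 5 of 5 low-dose mice, with changes of -694 to -484 rearrangements, and in 2 of 4 control mice, whose changes ran from -127 to 254. The mean change was -597 ± 103 against 26.1 ± 164, a difference of -624 (2-sided exact permutation p = 0.00794, adjusted over 6 measures 0.0317). Clonality was higher on day 7 than on day 0 in all 9 mice, by 0.0481 ± 0.0227 with the low dose and 0.00575 ± 0.00449 in the control group (difference 0.0424, exact permutation p = 0.0159, adjusted 0.0317). The share of the 10 largest clones was also higher in all 9, by 10.8 ± 4.36 and 2.55 ± 1.21 percentage points (difference 8.25, exact permutation p = 0.0159, adjusted 0.0317). Leaving out any one control mouse left clonality differences of 0.0411 to 0.0445, and leaving out control mouse 2, 3 or 4 left differences of 7.97 to 8.11 points for the 10 largest clones, each with an exact permutation p of 0.0536. Endogenous templates moved in opposite directions on average, with lower counts on day 7 in 4 of 5 low-dose mice and higher counts in 4 of 4 control mice. The changes of -6282 ± 5112 and 1988 ± 1792 templates overlapped between the groups (exact permutation p = 0.0238, adjusted 0.0357), and the difference no longer passed the test when low-dose mouse 1, 2, 3 or 5 or control mouse 2, 3 or 4 was left out (p = 0.0536 to 0.0714, exact permutation).

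**Figure D3:**
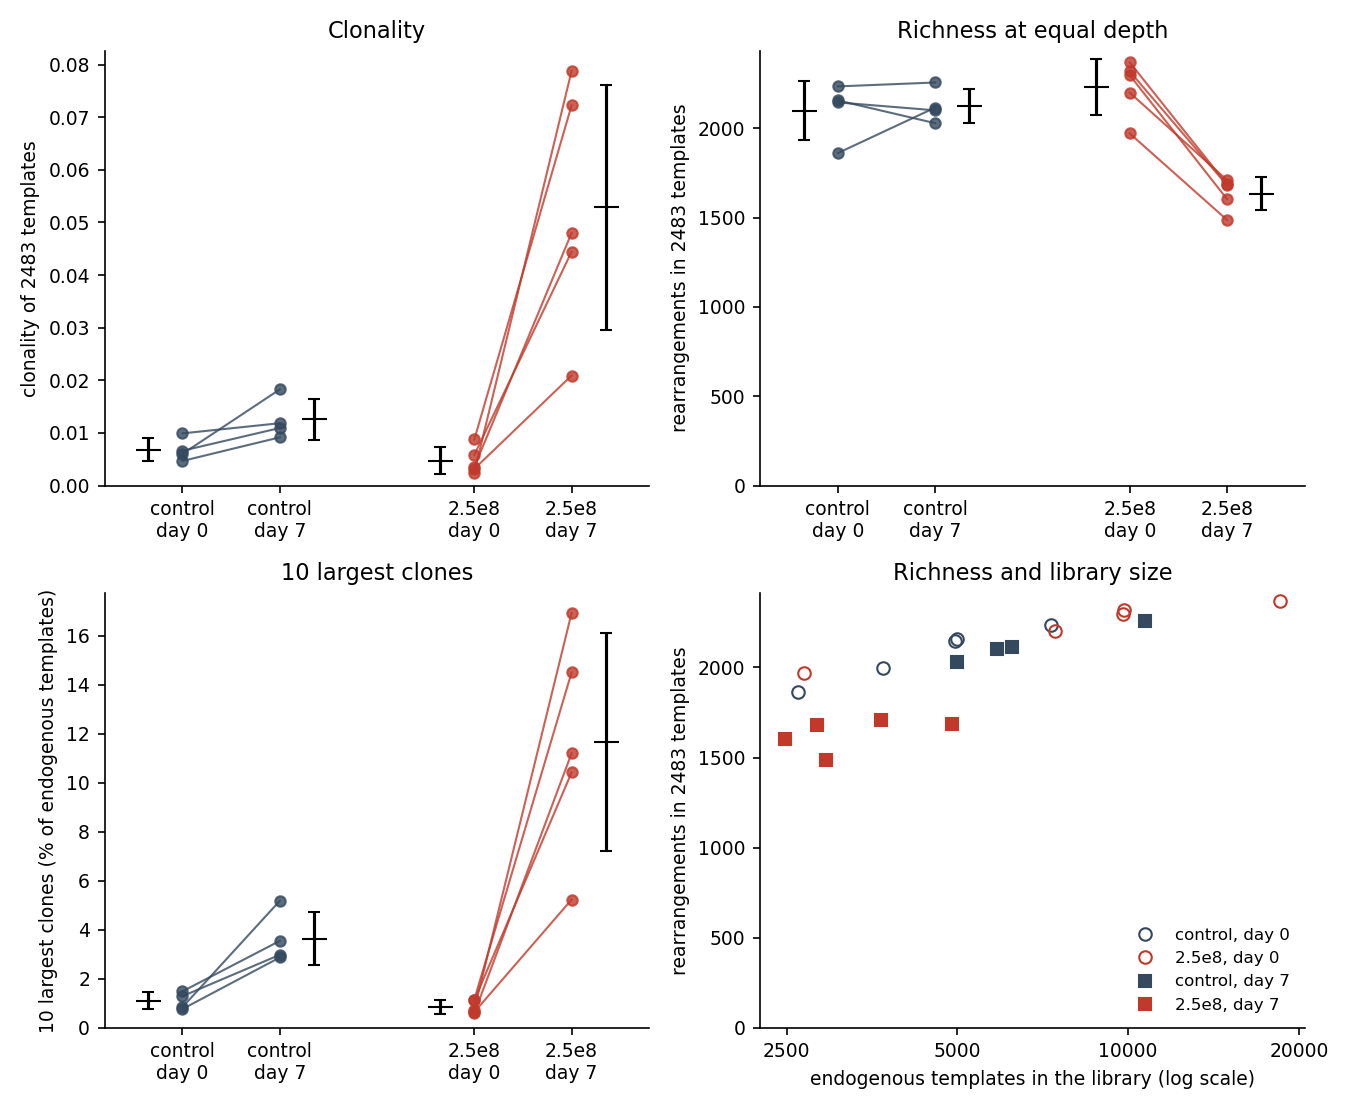
Clonality, richness among 2483 templates and the percent of endogenous templates in the 10 largest clones for each mouse on day 0 and day 7 (lines join a mouse, bars give the mean ± SD of each group), and richness against the endogenous templates of each library. On day 7 the 5 low-dose mice have a richness of 1488 to 1710 and the 4 control mice of 2029 to 2257, and in the last panel the low-dose squares lie to the left of and below the control squares.

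Most of the large blood clones were also found in the tumor. Of the 50 clones that ranked among the 10 largest of a low-dose library, 47 were found in the tumor of the same mouse, and 39 of 40 were found in the control group. They made up 45.7%, 68.7%, 44.6%, 56.0% and 23.8% of the tumor templates other than OT-1 and lymphoma of low-dose mice 1 to 5 and 49.1%, 39.96%, 33.2% and 44.5% of those of control mice 2 to 5. With the lymphoma kept these shares were 30.5%, 46.6%, 14.7%, 50.9% and 10.9% in the low-dose mice and 12.8%, 17.5%, 7.47% and 7.21% in the control mice. Read the other way, the 10 largest clones of a tumor other than OT-1 and lymphoma made up 4.13% to 16.8% of the endogenous blood templates in low-dose mice and 2.08% to 5.10% in control mice. In day 0 blood 17 of the 50 and 8 of the 40 were found, a count that depends on the depth of the day 0 libraries.

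V-segment use was tested with edgeR's quasi-likelihood test on templates summed per V gene, and fold changes are changes of a segment's share of endogenous templates. None of 25 V genes passed an adjusted p of 0.05 (0% called), 7 had an unadjusted p under 0.05 (3 higher and 4 lower in the low-dose mice), and DESeq2 called 1 of them. Groups did not overlap for 4 of the 25 (16%). The 5 V genes with the largest mean share were TCRBV13-02 (11.3% and 10.8% in the low-dose and control mice), TCRBV19-01 (10.02% and 7.21%), TCRBV03-01 (6.69% and 7.52%), TCRBV05-01 (6.01% and 6.63%) and TCRBV13-03 (5.46% and 6.37%).

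TCRBV29-01 had the smallest p. Its share was 3.68%, 5.29%, 6.20%, 4.39% and 3.67% in low-dose mice 1 to 5 and 3.30%, 3.11%, 3.16% and 3.64% in control mice 2 to 5, so that the groups did not overlap but lay close to each other. The log2 fold change was 0.49 (SE 0.16, edgeR adjusted p = 0.144). This was the gene DESeq2 called (adjusted p = 0.0493), and edgeR called it once the 10 largest clones of each library were left out (log2 fold change 0.33, adjusted p = 0.0148). TCRBV31-01 was lower in each low-dose mouse than in each control mouse, at 4.74% ± 0.387 against 5.67% ± 0.371 (log2 fold change -0.26, edgeR adjusted p = 0.144). TCRBV23-01 likewise did not overlap, at 0.544% against 0.706% (-0.39, adjusted p = 0.144), nor did TCRBV20-01, at 3.07% against 3.53% (-0.21, adjusted p = 0.170). TCRBV27-01 rested on 12 templates in all 9 libraries, 9 of them in low-dose mice and 3 in control mice (edgeR adjusted p = 0.144).

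TCRBV19-01 showed how much a few clones can move a segment's share. It made up 10.4%, 13.4%, 8.90%, 7.49% and 9.86% of endogenous templates in the low-dose mice and 6.25%, 7.38%, 8.66% and 6.56% in the control mice, with overlap between the groups (log2 fold change 0.48, SE 0.17, edgeR adjusted p = 0.144). With each rearrangement counted once the log2 fold change was 0.03, and without the 10 largest clones it was 0.01. TCRBV17-01 made up 10.8% in low-dose mouse 4, the mouse with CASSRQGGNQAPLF, and 1.38% to 2.81% in the other 8 mice.

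Among the fixed lists of V genes, the 5 genes often used by natural killer T cells (TCRBV13-01, TCRBV13-02, TCRBV13-03, TCRBV29-01 and TCRBV01-01) had 0 calls and a median log2 fold change of -0.07, against -0.11 over all 25 V genes. With TMM normalization or DESeq2's size factors, log2 fold changes of V genes moved up by a median of 0.11, the medians of this list and of the OT-1 family were 0.03 to 0.04, and the median of all V genes was 0.01. The summed share of the 5 genes often used by natural killer T cells was 28.5% to 33.3% in the low-dose mice and 30.2% to 33.2% in the control mice. Conventional T cells use the same genes. The OT-1 family, TCRBV12-01 and TCRBV12-02, had 0 of 2 genes called and a median of -0.08 once OT-1 itself was left out, with TCRBV12-01 at 4.47% and 5.24% and TCRBV12-02 at 3.36% and 3.21%. TCRBV15-01, the V gene of the lymphoma, made up 2.43% to 3.505% and 3.04% to 4.24% (log2 fold change -0.25, edgeR adjusted p = 0.224).

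**Figure D4:**
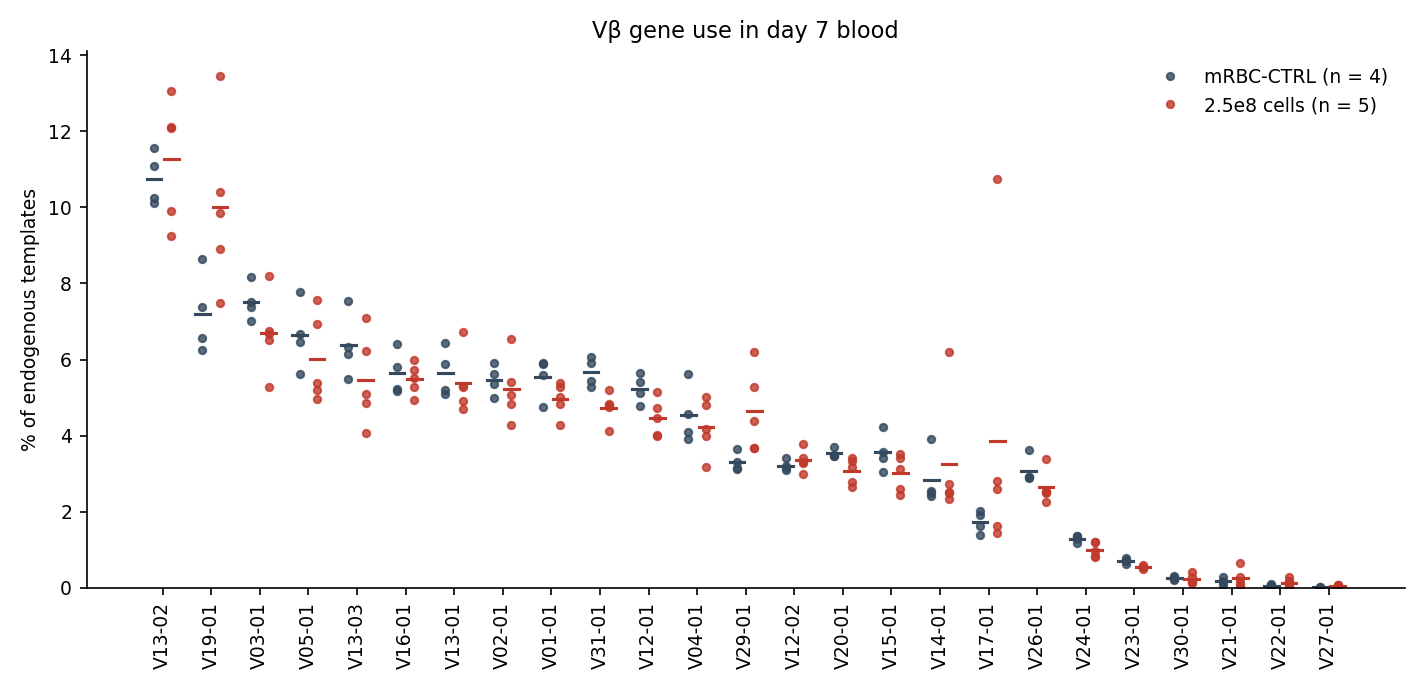
Share of endogenous templates of each of the 25 tested V genes, in percent, with a point per mouse and a bar at the mean of the 5 low-dose and the 4 control mice. The point of low-dose mouse 4 at 10.8% stands out in TCRBV17-01, TCRBV19-01 averages 10.02% against 7.21%, and most other genes overlap between the groups.

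J segments gave no call. Among 12 J genes, edgeR called 0 (0%) at an adjusted p of 0.05, 0 at an unadjusted p under 0.05, and DESeq2 also called 0. No J gene separated the groups. The most used were TCRBJ02-07 (27.8% and 27.2%), TCRBJ02-01 (10.6% and 9.53%) and TCRBJ02-05 (8.81% and 8.71%). The J1 cluster as a whole made up 34.8% ± 4.50 and 35.5% ± 1.10 (exact permutation p = 0.762, adjusted 0.794). Its spread in the low-dose mice ran from 28.4% in mouse 2 to 40.3% in mouse 4, where TCRBJ01-05, the segment of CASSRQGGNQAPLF, made up 13.8% against 3.04% to 5.45% in the other 8 mice.

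Mean CDR3 lengths lay close together. The mean length was 13.79 to 13.90 residues in the low-dose mice and 13.79 to 13.85 in the control mice, with means of 13.83 and 13.82 (2-sided exact permutation p = 0.794, adjusted 0.794). Of 12 lengths tested, edgeR called 0 (0%), 1 had an unadjusted p under 0.05, and DESeq2 called 0. That length was 9 residues, at 0.118% and 0.246% (log2 fold change -1.13, edgeR adjusted p = 0.367). CDR3s of 14 residues, the length of 11 of the 20 named clones, made up 34.1% ± 5.11 and 30.1% ± 1.38 (log2 fold change 0.18, edgeR adjusted p = 0.367), and the sign turned when each rearrangement was counted once (-0.01). CDR3s of 13 residues made up 18.97% and 21.3%.

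Pairs of V and J genes gave no call in 256 tested (0%). At an unadjusted p under 0.05 edgeR had 15 pairs, 6 higher and 9 lower, and DESeq2 called 0. In 6 pairs (2.34%) the groups did not overlap, and all 6 were lower in the low-dose mice. The median log2 fold change over all 256 pairs was itself -0.12. It was 0.03 with TMM normalization and 0.04 with DESeq2. The smallest p belonged to TCRBV03-01 with TCRBJ02-04, at 0.310% ± 0.0717 and 0.568% ± 0.0787 (log2 fold change -0.88, edgeR adjusted p = 0.678). TCRBV21-01 with TCRBJ01-01 followed, with 14 of its 18 templates in low-dose mouse 3, and then TCRBV01-01 with TCRBJ01-01, at 0.345% and 0.589%.

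CDR3 sequences shared between mice were rare and small. Only 165 of the 29629 rearrangements (0.557%) were found in more than 1 of the 9 libraries. As amino acid sequences, 22 CDR3s were found in at least 5 libraries and 2 of them in 7, the most of any, and none in all 9. Of the 14 with at least 10 templates, edgeR called 0 (0%), 1 had an unadjusted p under 0.05, and DESeq2 called 0. That 1 was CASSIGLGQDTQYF, with 0, 1, 2, 0 and 25 templates in low-dose mice 1 to 5 and 0, 0, 1 and 1 in control mice 2 to 5 (edgeR adjusted p = 0.487). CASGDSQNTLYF had 8 of its 14 templates in low-dose mouse 3, and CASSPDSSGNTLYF had 2 templates in low-dose mouse 1 and 16 in the control mice (edgeR adjusted p = 0.487 and 0.655).

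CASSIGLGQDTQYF was found in 5 of the 15 mice of the treatment experiment, with a different main rearrangement in each. The main sequence of each mouse is given to show where they part, in capitals from the cysteine codon on.
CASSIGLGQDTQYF, low-dose mouse 5: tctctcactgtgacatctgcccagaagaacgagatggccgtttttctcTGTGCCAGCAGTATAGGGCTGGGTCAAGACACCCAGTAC
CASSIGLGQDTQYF, low-dose mouse 2: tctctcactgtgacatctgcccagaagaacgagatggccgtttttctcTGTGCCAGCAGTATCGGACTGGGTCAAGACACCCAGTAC
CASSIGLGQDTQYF, low-dose mouse 3: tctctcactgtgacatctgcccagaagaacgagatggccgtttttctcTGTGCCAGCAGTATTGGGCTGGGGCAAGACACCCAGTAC
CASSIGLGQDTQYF, control mouse 4: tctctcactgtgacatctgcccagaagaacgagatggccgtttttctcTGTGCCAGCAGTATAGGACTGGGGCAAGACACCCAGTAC
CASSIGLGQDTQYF, control mouse 5: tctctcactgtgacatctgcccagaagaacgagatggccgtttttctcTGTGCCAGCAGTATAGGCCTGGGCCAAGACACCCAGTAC
The 5 sequences are all different, and each of the other 4 differs from that of low-dose mouse 5 at 2 bases, none of which changes the protein. On day 7 these rearrangements counted 25 templates in low-dose mouse 5, 2 in low-dose mouse 3 and 1 in each of the other 3. In the tumors they counted 666 templates in low-dose mouse 5, 82 and 17 in low-dose mice 3 and 2, and 33 and 65 in control mice 4 and 5. The tumor of control mouse 4 also held 13 templates of the exact rearrangement of low-dose mouse 5. A CDR3 found in tumors of both groups thus reached 0.5% of day 7 blood in 1 of these 5 mice.

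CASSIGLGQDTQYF is one of 4 named low-dose clones that read CASS, then I or M, then G, any residue and G, all with TCRBV19-01. The others are the TCRBV19-01/TCRBJ02-07 clone of mouse 2, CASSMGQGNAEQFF of mouse 1 and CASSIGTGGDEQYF of mouse 4, so that such a clone was among the named clones of mice 1, 2, 4 and 5 and of no control mouse. Each control mouse had only its largest clone named, since no other control clone reached 1%. Fewer control clones could therefore show the pattern, and its absence among them does not separate the groups. The pattern was noticed after the values were seen and is given without a test. It was read off these 4 large low-dose clones, which supply most of its templates in their libraries. Higher template shares in low-dose blood were thus built into the choice. Those in the low-dose tumors rest largely on the same clones, so neither compares the groups. By templates it made up 4.91%, 7.29%, 0.443%, 1.87% and 1.10% of the endogenous repertoire in low-dose mice 1 to 5 and 0.562%, 0.305%, 0.318% and 0.260% in control mice 2 to 5. By number of rearrangements the shares lay together, at 0.274% to 0.726% and 0.230% to 0.561%, and the largest such clone alone held 4.31%, 6.86%, 1.33% and 0.883% of endogenous templates in low-dose mice 1, 2, 4 and 5.

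Before treatment the pattern made up 0.255% to 0.410% of templates in the low-dose mice and 0.305% to 0.460% in all 5 control mice. In the tumors without the lymphoma it made up 28.9%, 36.7%, 0.737%, 14.8% and 10.1% in low-dose mice 1 to 5 and 0.0360% to 3.03% in the 5 control mice. With the lymphoma kept it made up 19.2%, 24.9%, 0.243%, 13.4% and 4.63% in the low-dose tumors and 0.0658% to 0.491% in the tumors of control mice 2 to 5. With the full dose of 1e9 it made up 0.274% to 2.94% on day 7 and, without the lymphoma, 0.0707% to 10.3% of the tumors. A single such clone held 2.61% of full-dose mouse 3 (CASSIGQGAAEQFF, 155 templates) and another 1.66% of full-dose mouse 5 (8 templates), the latter with the same CDR3 as the TCRBV19-01/TCRBJ02-07 clone of low-dose mouse 2. Large clones of the pattern were thus present at both doses. A control tumor held one as well. In the tumor of control mouse 5, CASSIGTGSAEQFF had 271 templates, 2.29% without the lymphoma. It was also the largest clone of the pattern in that mouse's day 7 blood, with 5 templates (0.09996%). The 4 named low-dose clones of the pattern carried 1 to 3 bases added at their joints and the other 16 named clones carried 1 to 8, so the ranges overlapped.

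**Figure D5:**
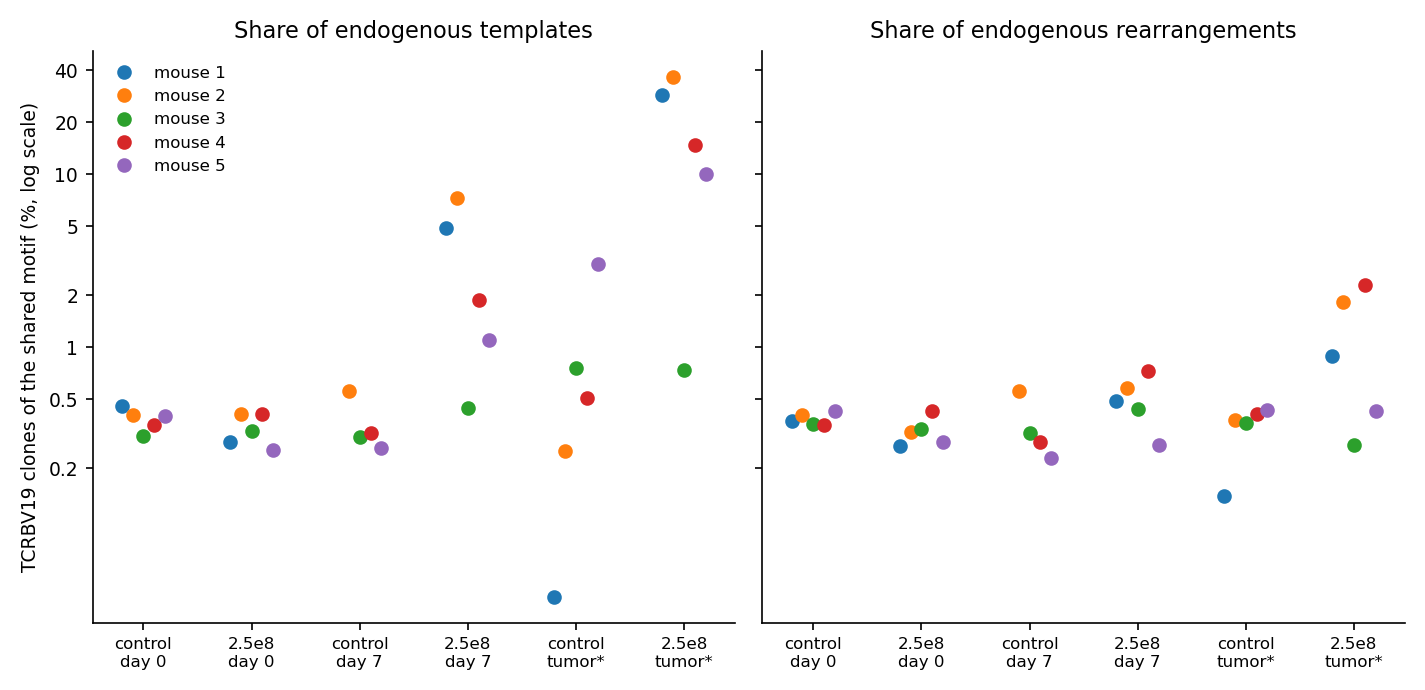
Share of endogenous templates (left) and of endogenous rearrangements (right), in percent on log axes, held by TCRBV19-01 CDR3s that start CASS, I or M, G, any residue, G, with a point per mouse in day 0 blood, day 7 blood and tumor of the control and low-dose groups (asterisk, tumors without the lymphoma CDR3). By templates the low-dose tumors reach 36.7% and the low-dose day 7 blood 7.29%, and by rearrangements the day 7 groups overlap, at 0.274% to 0.726% with the low dose and 0.230% to 0.561% in the controls. The pattern was read off large low-dose clones, so the shares by templates do not compare the groups.

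Clonality and richness of low and full dose were compared at 482 templates, the size of the smallest full-dose library, and the other measures at full depth. Clonality was 0.0320 with the low dose and 0.0507 with 1e9 (2-sided exact permutation p = 0.278), and richness was 409 and 366 (p = 0.0952). The 10 largest clones made up 11.7% ± 4.44 and 17.1% ± 5.89 (exact permutation p = 0.143). Clones of at least 0.5% numbered 5 to 7 and 6 to 28, with means of 5.8 and 13.4 (exact permutation p = 0.0317, adjusted over 8 measures 0.254), and the difference moved from -7.6 to -3.95 without full-dose mouse 5. In the library of 482 templates, 3 templates already pass this threshold. None of the 8 measures passed the adjusted threshold, and with 5 mice a group and 482 to 6579 templates behind the full-dose values this does not show that the doses act alike.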

How the data were processed

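TCRβ CDR3 regions were amplified from genomic DNA of blood in a bias-controlled multiplex PCR and sequenced on the immunoSEQ platform. The authors deposited, for each nucleotide rearrangement of a library, a count of templates without normalization, after collapsing and filtering their reads. Aligner, genome build and error model are not given in the sources used here, and no genome coordinates are reported. In 81 of 81 libraries the templates equalled the estimated number of genomes. The deposited fraction of templates was not used.

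In-frame rows without the CDR3 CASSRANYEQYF were kept. Tumor shares and ranks, and every share of the TCRBV19-01 pattern, also leave out the lymphoma CDR3 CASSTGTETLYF, and tumor shares with it kept were an alternative added after the data were seen. A clone was a nucleotide rearrangement. Richness and entropy were expected values for 2483 templates drawn without replacement (482 for clonality and richness against 1e9), computed from the hypergeometric law. Alternatives that removed rearrangements used the smallest library total that was left. Means of the arms were set against each other in exact 2-sided permutation tests that enumerate the splits, with Benjamini-Hochberg adjustment over 8 measures, or 6 for day 0 and for changes from day 0, which were paired by animal code. Templates summed per V gene, J gene, V-J pair, CDR3 length and shared CDR3 (at least 5 libraries) were tested with edgeR's quasi-likelihood test with library totals as offsets, for features of at least 10 templates. DESeq2 and TMM normalization were alternatives. The tests were checked on simulated data. Shares of single clones have 95% Wilson intervals and a floor of 3 templates, which cover counting error only. Mouse numbers repeat across groups, but different animals carry them. Correlations of V-use deviations between mice of the same number were -0.363, -0.0338, -0.0345 and -0.236 for mice 2 to 5, so the main tests did not pair groups by number. A block by number was run only as an alternative.

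Named clones were the largest of each library, those with at least 1% of endogenous templates and CDR3s above OT-1, and named segments were the most used, those with the smallest p and those of fixed lists. CDR3s found in all 9 libraries were to be named, but there were none. The members and lists were chosen with earlier results of these data known. Values of day 0 blood and tumors are given for the same mice. Computations used R 4.3.3, edgeR 4.0.16, DESeq2 1.42.0, Python 3.11.15, numpy 2.4.6, pandas 2.3.3, scipy 1.17.1 and matplotlib 3.10.9.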

Additional observations from a re-analysis of the deposited data

Results flagged for a closer look

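The change from day 0 to day 7 differed between the low-dose and control mice by a 2-sided exact permutation test of the difference itself for 4 of 6 measures. The differences, low dose minus control, were 0.0424 for endogenous clonality, -624 rearrangements for richness among 2483 templates, 8.25 percentage points for the 10 largest clones and -8269 endogenous templates.

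A single mouse stood apart from the rest of its group by Dixon's criterion in 9 of 76 groups of values. For continuous values chance gives about 1 in 20. Groups in which all other mice were tied always pass, and some features were included for their small p. The 9 of 76 can therefore not be set against that rate. In low-dose mouse 4, TCRBJ01-05 made up 13.8% of endogenous templates, with the next mouse at 5.45%. In low-dose mouse 3, TCRBV21-01 with TCRBJ01-01 made up 0.564% (next 0.0354%), and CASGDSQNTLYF made up 0.322% (next 0.0353%). In low-dose mouse 5, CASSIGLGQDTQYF made up 0.883% (next 0.0805%). In low-dose mouse 1, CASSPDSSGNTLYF made up 0.0545%, which is 2 templates, with the others at 0.

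Among the control mice, mouse 5 had 4 clones of at least 0.5% where the others had 1, and its 10 largest clones rose by 4.34 percentage points from day 0, with the next mouse at 2.10. In control mouse 4, TCRBV21-01 with TCRBJ01-01 was at 0.00935% and in the others at 0. In control mouse 3, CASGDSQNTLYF was at 0.0481% and in the others at 0.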

How the results depend on the processing

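Of 790 alternative values, 685 were counted as unchanged. For differences and fold changes this means the same direction and side of the threshold. For the feature families it means the same number of calls, and for shares of single clones and tumor shares a value inside the 95% Wilson interval. With the lymphoma CDR3 kept in the tumors, 37 tumor shares fell below their 95% Wilson interval, since more templates were counted in the total. Under a replicate block by mouse number (mice 2 to 5, exact sign flips, smallest p 0.125) the day 7 differences were 0.0424 for clonality, -511 for richness, 8.32 percentage points for the 10 largest clones, 4.25 clones of at least 0.5% and -3665 templates, and the changes from day 0 differed by 0.0448, -651, 8.63 and -8903. For low against full dose, clones of at least 0.5% differed by -7.6 with the block (exact p = 0.0625). Without single-template rearrangements the difference in clones of at least 0.5% was 4.5 (exact p = 0.0556). With CDR3s as clones, the change of the largest clone differed by 3.72 percentage points (exact p = 0.0476). The difference in mean CDR3 length changed sign with ranks (-0.45), with rearrangements counted once (-0.000927), without the 10 largest clones (-0.0152) and with the block (-0.00954). The log2 fold change of TCRBV13-01 turned to 0.0444 with TMM, 0.0359 with rearrangements counted once, 0.01002 without the 10 largest clones and 0.0398 with DESeq2. With rearrangements counted once and without the 10 largest clones, that of TCRBV12-01 turned to 0.00876 and 0.00870 and that of 14-residue CDR3s to -0.00714 and -0.0214. DESeq2 and edgeR without the 10 largest clones each called 1 V gene, TCRBV29-01. Without low-dose mouse 5, 1 J gene (TCRBJ01-06) was called, and without low-dose mouse 1, 1 shared CDR3 (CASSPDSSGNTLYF). The cause was not tested.

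Leaving out each mouse in turn gave day 7 differences of 0.0338 to 0.0483 for clonality, -524 to -448 for richness, 2.59 to 4.64 for the largest clone, 6.69 to 9.61 for the 10 largest, 3.75 to 4.8 for clones of at least 0.5%, -4240 to -2341 for templates, -0.00954 to 0.0210 residues for CDR3 length and -2.14 to 0.806 for the J1 cluster. Changes from day 0 differed by 0.0353 to 0.04997, -675 to -548, 2.58 to 4.62, 6.91 to 9.81 and -9904 to -6435 for clonality, richness, the largest clone, the 10 largest and templates. Low minus full dose ran from -0.0280 to -0.00909, 22.4 to 58.8, -2.42 to 0.537, -7.82 to -3.86, -9.45 to -3.95 and -1286 to 239 for clonality, richness, the largest clone, the 10 largest, clones of at least 0.5% and templates. Without mouse 1 of the full dose, richness (58.8, exact permutation p = 0.00794) and the 10 largest clones (-7.82, exact permutation p = 0.0317) differed. At these depths a clone under about 0.1% of endogenous templates cannot be measured in the low-dose libraries.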
